A study of Mus musculus with 10 samples.

Results

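Gcn1 and 9 other genes of the integrated stress response were examined in the aorta of Npas2 mutant and wild-type mice. Gcn1 was chosen by its own readout, since it had passed the limma fit of these same arrays, and its values are therefore given as a description, with no p and with nothing read from whether it passes. The other 9 genes, Eif2ak1, Eif2ak2, Eif2ak3, Eif2ak4, Atf4, Ddit3, Asns, Trib3 and Ppp1r15a, were taken because they belong to the same pathway, with earlier results of these data known. The 10 genes had 28 of the 45037 probe sets on the array that were not controls. Of the 28, 18 were bright enough to test, meaning that their level exceeded the median of the array for 5 or more of the 10 arrays, and each of the 10 genes had at least 1 of these. Gcn1 is listed on the platform under its older symbol Gcn1l1.

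RNA came from male mice, 5 arrays of the Npas2 mutant on a C57Bl/6J background and 5 of wild type labelled C57Bl/6. The NPAS2 protein is a clock transcription factor that pairs with BMAL1. Neither the nature of the mutant allele nor the ages of the mice could be found in the labels. Both groups had at least 2 weeks of 12 h light and 12 h darkness, then at least 30 h of constant darkness, and were killed at zeitgeber time 14 h. The tissue is called thoracic aorta in the sample descriptions, while the dissection protocol describes a piece running from the arch to beyond the femoral branching. Nothing in the labels ties each array to its own mouse. The p values therefore measure the spread between arrays, which may be technical, and precision is limited by having 5 arrays a group.

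The integrated stress response slows protein synthesis when a cell is short of amino acids, loaded with unfolded protein, infected or short of haem. Each of these stresses activates a kinase that phosphorylates the initiation factor eIF2, and GCN1 is the large ribosome-bound protein through which stalled ribosomes and uncharged tRNAs activate the kinase GCN2, the product of Eif2ak4. While most translation falls, that of Atf4 mRNA rises, and the ATF4 protein then induces genes of amino acid supply such as Asns, regulators such as Ddit3 and Trib3, and Ppp1r15a, whose product recruits the phosphatase that reverses the signal. Kinase activity, eIF2 phosphorylation and ATF4 protein are not read by an mRNA array.

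The arrays resembled each other closely, with medians between 3.14 and 3.20 on the log2 scale and correlations across probe sets of 0.988 to 0.996 for arrays of 1 group and 0.986 to 0.996 for arrays of different groups. Smooth muscle markers were strong, with Acta2 at 14.38 in the mutant and 14.42 in wild type and Myh11 at 13.22 in the mutant and 13.40 in wild type, as log2 levels. All 7 smooth muscle markers had lower means in the mutant. The groups did not overlap for Myh11 or for the endothelial marker Pecam1 (7.35 to 7.99 in the mutant and 8.02 to 8.10 in wild type). Of all tested genes, 4.21% showed such separation by their brightest probe set. Neither Myh11 nor Pecam1 passed the limma test (adjusted p = 0.213 and 0.220). Of the 7 endothelial markers, 4 had higher means in the mutant. The mean of that list was 6.25 in the mutant and 6.28 in wild type. The part of cell mixture in the Gcn1 difference was not tested through these markers. The mean level of 9 brown fat markers did not overlap between the groups, at 8.36 to 8.99 in the mutant and 7.55 to 8.12 in wild type, and all 9 were higher in the mutant. The mean level of 11 skeletal muscle markers varied widely within both groups, at 3.31 to 11.04 in the mutant and 3.27 to 9.85 in wild type. On 4 arrays, mutant F12, F19 and F20 and wild type F16, it was above 8. Npas2 itself was dim, at 3.43 ± 0.03 in the mutant and 3.71 ± 0.24 in wild type on its brighter probe set (SD, n = 5 each), and which stretch of the transcript it reads is not known here.

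Promoter windows of 300 bases, from 250 before to 50 after the annotated gene start, were read from RefSeq (GRCm38.p6) and searched on both strands for a pair of motifs. These were CACGTG, the E-box through which NPAS2 and its partner bind DNA, and TGATGNAA, the C/EBP-ATF element through which ATF4 acts. All 10 genes had a window, and Eif2ak4 had a second one, which makes 11. The letters CACGTG were in 0 of the 11 windows, while 7.15% of the 32851 windows of all genes held them. The letters TGATGNAA were in 2 of the 11, against 3.97% of all windows, and this says nothing of binding in the aorta. The Gcn1 window (chr5:115565013-115565312, plus strand) is shown because Gcn1 is the gene with the largest change, and the Asns (chr6:7693160-7693459, minus strand) and Trib3 (chr2:152344011-152344310, minus strand) windows because they hold the element, marked in capitals. Each is written 5′ to 3′ in the direction of the gene.
Gcn1: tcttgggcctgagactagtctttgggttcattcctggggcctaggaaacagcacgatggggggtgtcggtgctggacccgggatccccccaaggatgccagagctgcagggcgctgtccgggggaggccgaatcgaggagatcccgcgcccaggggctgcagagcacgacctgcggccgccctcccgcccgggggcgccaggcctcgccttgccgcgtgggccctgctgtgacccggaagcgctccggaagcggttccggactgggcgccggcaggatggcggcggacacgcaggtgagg
Asns: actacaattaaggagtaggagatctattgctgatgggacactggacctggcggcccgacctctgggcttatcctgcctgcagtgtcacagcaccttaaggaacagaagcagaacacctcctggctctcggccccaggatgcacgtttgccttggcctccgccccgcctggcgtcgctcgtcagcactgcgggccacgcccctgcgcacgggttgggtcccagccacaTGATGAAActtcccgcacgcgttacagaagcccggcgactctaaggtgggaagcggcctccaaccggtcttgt
Trib3: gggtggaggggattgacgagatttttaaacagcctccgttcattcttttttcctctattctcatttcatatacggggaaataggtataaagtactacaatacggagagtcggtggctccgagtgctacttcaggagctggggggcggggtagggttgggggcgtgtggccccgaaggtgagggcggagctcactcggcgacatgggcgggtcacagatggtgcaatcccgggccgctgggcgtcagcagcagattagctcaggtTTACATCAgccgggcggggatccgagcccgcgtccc
In Asns the element began 23 bases before the start, and in Trib3 it was on the opposite strand, beginning 14 bases after the start. No capitals stand in the Gcn1 window, which only means that neither string of letters occurs within those bases. None of the 10 genes lies on chromosome 1, which carries Npas2. The background labels of the groups differ too, so genotype and strain background cannot be told apart on any chromosome.

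On the probe set bright enough to test, Gcn1 was lower on every mutant array than on every wild-type array. Its bright probe set, 1433713_at, had log2 levels of 4.41, 4.71, 4.39, 4.25 and 4.22 on mutant arrays F12, F13, F18, F19 and F20, against 5.38, 4.99, 5.06, 5.15 and 5.03 on wild-type arrays F11, F14_2, F15, F16 and F17. The highest mutant array, F13, lay below the lowest wild-type array, F14_2, so the groups did not overlap. The means were 4.40 ± 0.20 in the mutant and 5.12 ± 0.16 in wild type (SD, n = 5 each). The log2 change of -0.72 (SE 0.11, 95% interval -0.96 to -0.49) makes the mutant level 1.65-fold lower. Because Gcn1 was chosen by this same fit, the interval had to exclude 0, and the size may be overstated. In bulk tissue, fewer cells of a type that expresses the gene and less RNA per cell cannot be told apart. Across the whole table, limma called 48 of 22340 probe sets at an adjusted p threshold of 0.05, which is 0.215%, and 40 had a change further below 0 than that of Gcn1.

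The other 4 Gcn1 probe sets were too dim to test. For 1440391_at the log2 levels were 2.23, 2.27, 2.24, 2.26 and 2.25 in the mutant, against 2.74, 2.23, 2.68, 2.66 and 2.37 in wild type. The mutant arrays were nearly level (SD 0.016), while the wild-type arrays were spread (SD 0.224) and 1 of them lay among the mutant values. Its mean difference was -0.29, in the direction of the bright probe set. The differences on 1446543_at, 1439472_at and 1455879_at were 0.03, 0.02 and 0.03, with overlapping groups, so the difference of Gcn1 rests on 1 probe set of 5. Which stretch of the transcript each of them reads is not known here.

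**Figure D1:**
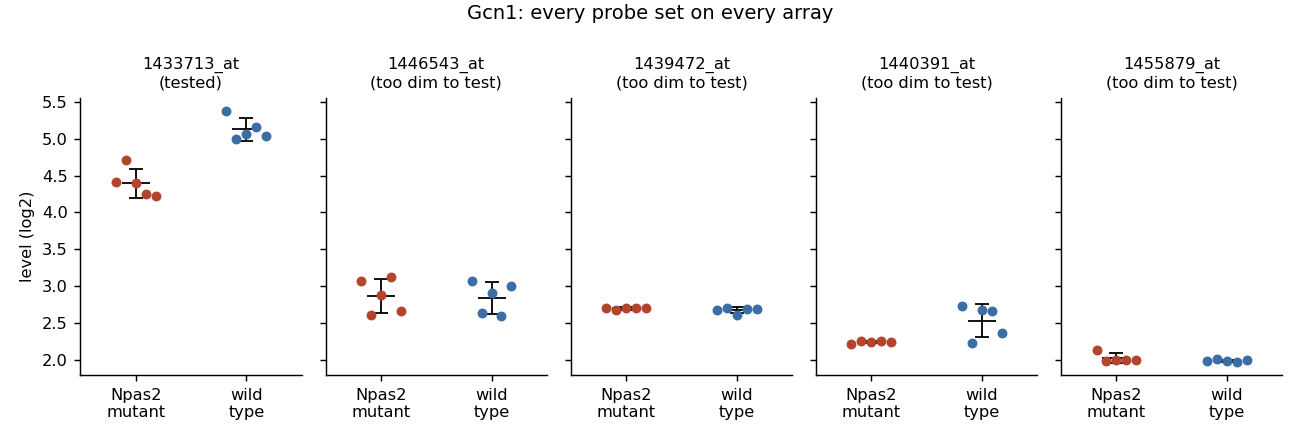
Log2 level of each of the 5 Gcn1 probe sets on every array, Npas2 mutant in red and wild type in blue, with the mean and SD (n = 5 each). On 1433713_at the mutant arrays sit between 4.22 and 4.71 and the wild-type arrays between 4.99 and 5.38, while the other 4 lie near the bottom of the range and overlap.

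The Gcn1 difference had the same sign in each of the 20 analyses that included it, and its size ran from -0.93 to -0.56. The log2 change was -0.68 after quantile normalisation and -0.67 after centring each array on its median. Leaving out 1 array at a time gave changes between -0.80 (without mutant F13) and -0.66 (without wild type F11). With the mean of the 8 brown fat markers bright enough to test as a covariate the change was -0.93 (SE 0.20). With the skeletal muscle mean it was -0.68. Without the 4 muscle-rich arrays, a choice made after seeing the data, the change was -0.56 over 6 arrays. Since the groups separate on these same arrays by the choice of the gene, a stable sign is no support for the difference.

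**Figure D2:**
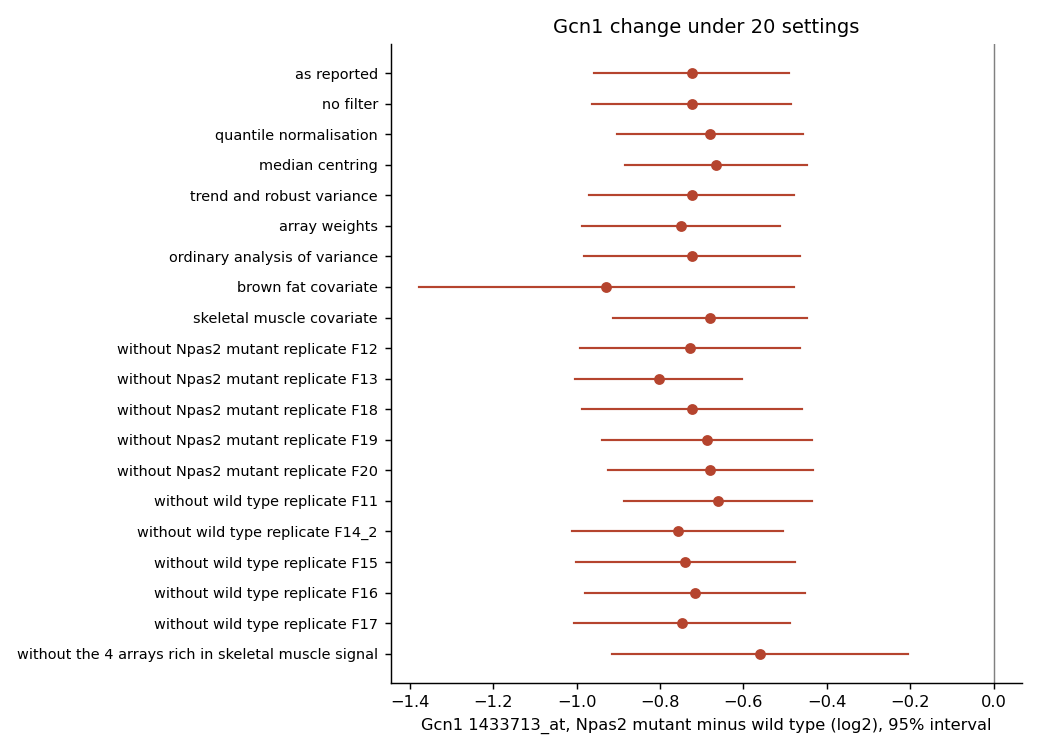
Log2 change of Gcn1 probe set 1433713_at, Npas2 mutant minus wild type, with its 95% interval under each of 20 analyses, the 10 that leave out 1 array included. Every change lies between -0.93 and -0.56, and the interval is widest with the brown fat covariate. Gcn1 was chosen by the fit of these arrays, so the intervals only describe.

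The 4 kinases that phosphorylate eIF2 did not pass the test on any of their 9 tested probe sets. Eif2ak4, which encodes GCN2, the kinase that GCN1 activates, had log2 levels of 4.77, 4.55, 4.90, 4.71 and 4.74 in the mutant, against 5.05, 4.64, 4.79, 4.83 and 4.82 in wild type on 1421389_a_at. The groups overlapped, although 4 of 5 mutant arrays lay below the wild-type mean. The change was -0.09 (95% interval -0.28 to 0.10, limma adjusted p = 0.606), and the second probe set, 1443235_at, also had a change of -0.09 (limma adjusted p = 0.724). The interval of the bright probe set spans folds of 0.822 to 1.07, so a fall as deep as that measured for Gcn1 lies outside it.

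Eif2ak3 encodes PERK, the kinase of the endoplasmic reticulum that answers unfolded protein. Its log2 levels on 1449278_at were 5.43, 5.60, 5.61, 5.60 and 5.60 in the mutant, against 5.60, 5.56, 5.65, 5.68 and 5.60 in wild type. Apart from mutant F12, the arrays of both groups lay within a narrow band, and the change was -0.05 (95% interval -0.17 to 0.07, limma adjusted p = 0.686). This was the steadiest of the 18 tested probe sets, with a pooled SD of 0.0642 where the median over all tested probe sets was 0.161.

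Eif2ak1 encodes HRI, the kinase that senses haem shortage and relays mitochondrial stress. On 1421901_at its log2 levels were 6.34, 6.07, 6.00, 5.84 and 6.30 in the mutant, against 5.84, 6.10, 6.16, 6.13 and 6.06 in wild type. Mutant F12 and F20 were the highest, mutant F19 and wild type F11 the lowest, and the groups overlapped. The change was 0.05 (95% interval -0.18 to 0.28, limma adjusted p = 0.836), and it was 0.12 on 1421900_at and 0.08 on 1436006_at.

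Eif2ak2 encodes PKR, the kinase activated by double-stranded RNA. Its brightest probe set, 1422006_at, had log2 levels of 3.93, 4.26, 4.20, 4.18 and 4.41 in the mutant, against 4.32, 4.22, 4.03, 3.82 and 4.20 in wild type, a change of 0.08 (95% interval -0.16 to 0.32, limma adjusted p = 0.747). On 1440866_at all 5 mutant arrays lay below the wild-type mean, with a change of -0.17 (95% interval -0.33 to -0.01) that did not pass (limma adjusted p = 0.295). On 1422005_at the change was 0.05, so the probe sets of this gene differed in direction. They also did not vary together within the groups, with r between -0.155 and -0.009 over the 10 arrays, whereas the pair for Eif2ak4 had r = 0.841 and 1421901_at with 1421900_at of Eif2ak1 had r = 0.760. These r values, on levels centred on their group means, describe arrays that share their RNA and hybridisation.

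Downstream of the kinases, the transcription factor mRNAs did not pass either. Atf4 had log2 levels of 7.67, 7.84, 7.46, 7.68 and 7.80 in the mutant, against 7.49, 7.75, 7.57, 8.18 and 7.94 in wild type on 1448135_at. Wild type F16 and F17 were the highest and the groups overlapped, with a change of -0.10 (95% interval -0.38 to 0.19, limma adjusted p = 0.739). The change was -0.11 on 1438992_x_at (limma adjusted p = 0.714). Ddit3 encodes CHOP, a transcription factor induced under prolonged stress. Its levels on 1417516_at were 6.23, 6.36, 6.62, 6.45 and 6.67 in the mutant, against 6.50, 6.58, 6.43, 6.69 and 6.70 in wild type, a change of -0.11 (95% interval -0.32 to 0.09, limma adjusted p = 0.567). The mutant arrays reached lower but overlapped the wild-type range.

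Among the targets of ATF4, Asns, which encodes asparagine synthetase, had higher means in the mutant on both of its probe sets, without passing the test. Its log2 levels on 1451095_at were 7.59, 7.63, 7.07, 7.20 and 7.39 in the mutant, against 7.02, 7.26, 6.96, 6.99 and 7.05 in wild type. All 5 mutant arrays lay above the wild-type mean, and wild type F14_2 lay among the mutant values. The change was 0.32 (SE 0.11, 95% interval 0.07 to 0.57, limma adjusted p = 0.223). On 1433966_x_at the levels were 7.45, 7.57, 7.28, 6.82 and 7.34 in the mutant, against 7.03, 6.82, 7.02, 6.90 and 7.05 in wild type, with mutant F19 the lowest of all arrays. The change there was 0.33 (SE 0.12, limma adjusted p = 0.254). Without mutant F19 it was 0.45 (limma adjusted p = 0.0655), and it missed the threshold in every other analysis too. The brown fat markers were higher on the same mutant arrays. With the mean of the 8 tested ones as a covariate the change on 1451095_at was -0.03 (SE 0.19) and that on 1433966_x_at 0.15 (SE 0.24). Because the mean of all 9 brown fat markers separates the groups completely, the covariate drawn from them and the genotype cannot be told apart. This holds here and in the other fits that use it.

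Trib3 encodes a pseudokinase that holds back ATF4 and CHOP. On 1426065_a_at its log2 levels were 4.09, 4.03, 4.11, 3.82 and 3.89 in the mutant, against 4.12, 3.84, 3.88, 3.83 and 3.96 in wild type, a change of 0.06 (95% interval -0.11 to 0.24, limma adjusted p = 0.718). On 1456225_x_at the change was -0.18 (limma adjusted p = 0.403), so its probe sets differed in direction. Ppp1r15a encodes GADD34, the stress-induced subunit that directs protein phosphatase 1 to eIF2. Its levels on 1448325_at were 5.50, 5.34, 5.31, 5.24 and 5.50 in the mutant, against 5.27, 5.30, 5.30, 5.50 and 5.64 in wild type. The groups overlapped throughout, and the change was -0.02 (95% interval -0.22 to 0.17, limma adjusted p = 0.918).

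**Figure D3:**
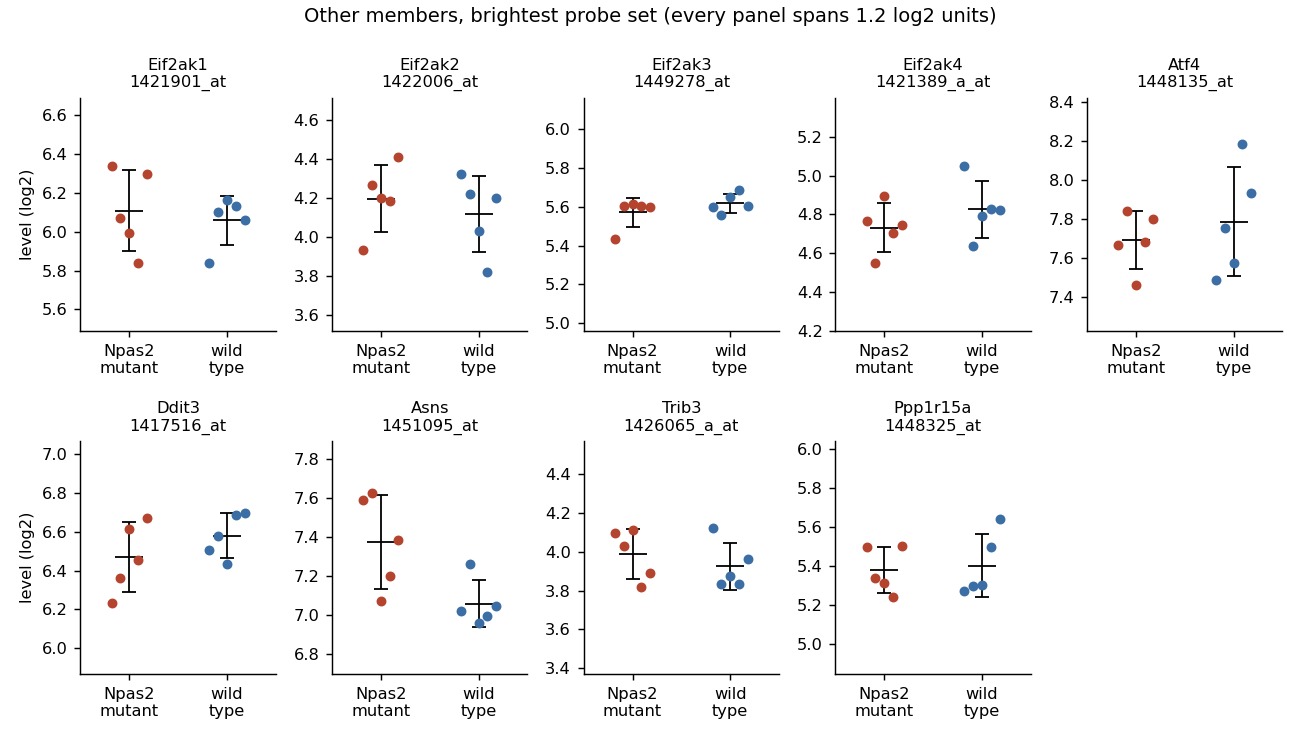
Log2 level of the brightest probe set of each of the 9 other genes on every array, Npas2 mutant in red and wild type in blue, with the mean and SD (n = 5 each), on axes that span an equal range. The groups overlap in every panel. Asns is the panel in which all 5 mutant arrays lie above the wild-type mean.

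In all, 1 of the 18 tested probe sets passed the limma test, that of Gcn1, where 0.215% of all tested probe sets did, and nothing is read from that count because Gcn1 was chosen for it. The groups did not overlap on 1 of the 18, again that of Gcn1, where 4.01% of all tested probe sets showed such separation. The 17 tested probe sets of the other 9 genes had changes between -0.18 and 0.33 and limma adjusted p values between 0.223 and 0.918. With Gcn1 included, 4 of the 18 had an unadjusted limma p under 0.05, where 15.3% of all tested probe sets did. Besides Gcn1 these were both probe sets of Asns and 1440866_at of Eif2ak2. Nothing is read from this count either, because Gcn1 was chosen by the same fit. By their brightest probe sets, the mutant mean was above the wild-type mean for 4 of the 10 genes and below it for 6, and their median change was -0.04, where it was -0.02 over the brightest probe sets of all 10945 tested genes. None of the 10 untested probe sets separated the groups. Beside the 4 of Gcn1 these were 1430696_at and 1453902_at of Eif2ak1 (differences of -0.15 and 0.01), 1430371_x_at and 1453505_a_at of Eif2ak3 (0.02 and 0.0080), 1439258_at of Atf4 (0.10) and 1443897_at of Ddit3 (0.06).

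**Figure D4:**
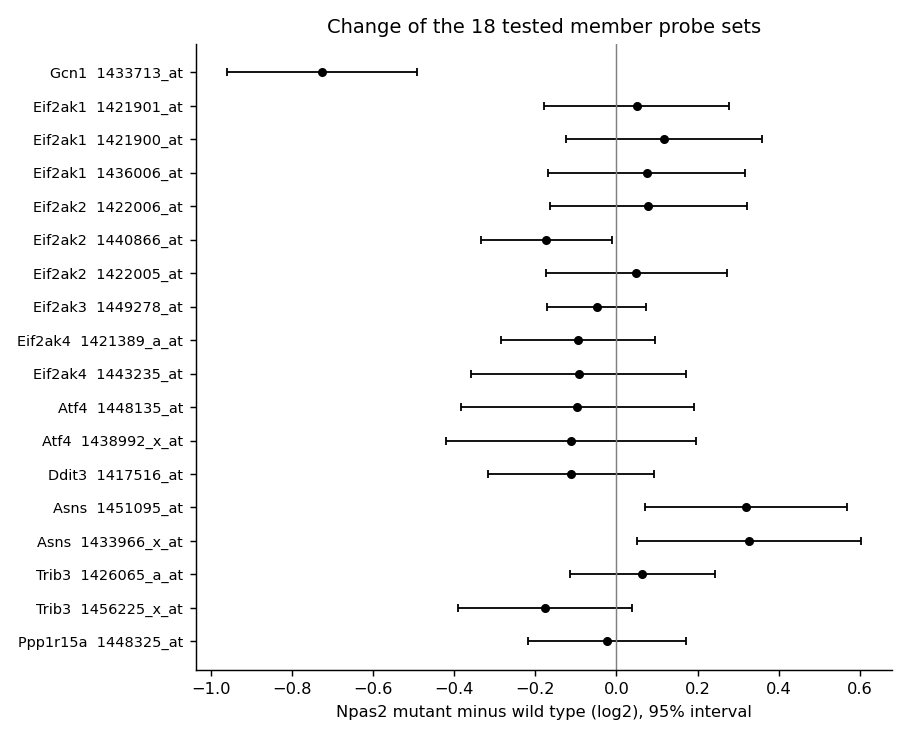
Log2 change, Npas2 mutant minus wild type, of the 18 tested probe sets with 95% intervals (n = 5 arrays per group). Gcn1 stands at -0.72, and the other 17 lie between -0.18 and 0.33. The Gcn1 interval had to exclude 0 by the choice of that gene, unlike the other 17.

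The genes were then examined for whether they rose and fell together from array to array within the groups, on values centred on their group means over 10 arrays. Among the 45 pairs, 0 passed an exact two-sided permutation test after Benjamini-Hochberg adjustment, and 0 had an unadjusted exact p under 0.05, by Pearson's r or by Spearman's rho. Of the 45, 25 had r above 0. Gcn1 and Trib3 had the largest r (r = 0.66, exact permutation p = 0.0560, adjusted p = 0.743; rho = 0.685, exact permutation p = 0.0656, adjusted p = 0.886). Without mutant F19 and F20, r was 0.443. These 2 arrays lay farthest from the median of Gcn1 before centring. On the centred values mutant F13 and wild type F11 lay farthest out. Without mutant F13 alone r was 0.804, and without wild type F11 alone it was 0.476. For Gcn1 with Eif2ak4, the kinase gene it acts through, the values were r = 0.147 (exact permutation p = 0.679, adjusted p = 0.955) and rho = 0.224 (exact permutation p = 0.540, adjusted p = 0.886). Without mutant F19 and F20 the r of this pair was 0.163.

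Over all tested probe sets with a single gene, those most like Gcn1 from array to array within the groups were Zfp219 (r = 0.922), Wdr37 (r = 0.921), Cipc (r = 0.911), Rrnad1 (r = 0.911) and Eif3c (r = 0.908), each over 10 arrays. They are the top 5 of the whole table and so had to be high, and the points share the overall level of each array. Centring the arrays on their medians left the r of Eif3c at 0.712. Their changes between mutant and wild type were small, from -0.18 for Rrnad1 to 0.01 for Zfp219.

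Beyond the 10 genes, 8 lists held 112 genes, of which 108 were measured and 99 were bright enough to test. They covered the rest of the pathway and, in the last list, 14 genes of the other arms of the unfolded protein response. Not 1 of the 99 passed the limma test on its brightest probe set, where 0.183% of all tested genes did, and an ordinary analysis of variance also called 0. At an unadjusted limma p of 0.05, 10 of the 99 passed. Of these 6 were above wild type, where 5.21% of all tested genes were, and 4 were below it, where 9.83% were. The groups did not overlap for 6 of the 99, where 4.21% of all tested genes showed this. The last list held 3 of the 6 genes above wild type and 2 of the 6 without overlap. Means were higher for 48 and lower for 51, and the median change of the 99 was -0.01.

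The partners of GCN1 and GCN2 had lower means in the mutant for 7 of 8 tested genes, with a median change of -0.13, where 55.9% of all tested genes had a lower mean. Of the 8, 1 had an unadjusted limma p under 0.05 and was lower, where 9.83% of all tested genes did. Map3k20, which encodes ZAK, a kinase of stalled and collided ribosomes, had a change of -0.18 (limma adjusted p = 0.305). Impact, which encodes an inhibitor of GCN2 activation that competes for GCN1, had a change of -0.15 (limma adjusted p = 0.503). Abcf3, the mouse counterpart of the yeast Gcn20 family, was the exception, at 0.14. The list of eIF2 and its exchange factor eIF2B also held Eif2a and Eif5, which encode separate factors. It was split, with 6 higher and 4 lower of 10 and a median of 0.02. Eif2s1, which encodes the alpha subunit of eIF2, was not matched to a probe set and was not tested. Eif2s3x, the gamma subunit of eIF2, had a change of -0.13 (limma adjusted p = 0.299), and Eif2b5, the catalytic subunit of eIF2B, one of -0.10 (limma adjusted p = 0.640). The phosphatase subunits and kinase modulators had 6 higher and 4 lower of 10 and a median of 0.03. The largest changes there were those of Nck1, an adaptor that dampens PERK signalling (0.16), and Prkra, the activator of PKR (-0.10). A second probe set of Nck1 gave 0.08.

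Cebpb and Atf3 had the widest differences among ATF4 partners and stress transcription factors, a list with 4 higher and 4 lower of 8. Cebpb, which encodes a C/EBP factor that pairs with ATF4, had log2 levels of 10.34, 10.36, 9.74, 9.75 and 10.08 in the mutant, against 9.13, 9.21, 9.58, 9.54 and 9.54 in wild type. The groups did not overlap, and the change was 0.65 (SE 0.15, limma adjusted p = 0.114), with 0.54 on a second probe set, where the groups did overlap. Atf3, a stress-induced factor of the ATF family, had levels of 4.70, 5.28, 4.29, 4.001 and 5.13 in the mutant, against 4.32, 5.01, 4.26, 7.90 and 7.78 in wild type. Its change of -1.17 (SE 0.74, limma adjusted p = 0.461) came with 2 wild-type arrays, F16 and F17, far above the other 8, on which the groups overlapped.

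Genes of amino acid uptake and synthesis had 6 higher and 12 lower means of 18 and a median change of -0.05. Slc38a2, which encodes the amino acid transporter SNAT2, had levels of 10.05, 10.39, 10.43, 10.50 and 10.24 in the mutant, against 10.55, 10.54, 10.56, 10.81 and 10.69 in wild type. Every mutant array lay below every wild-type array, with a change of -0.31 (SE 0.09, limma adjusted p = 0.177) and the same size on a second probe set, where the groups did overlap. Mthfd1l, a mitochondrial enzyme of folate metabolism, had a change of -0.33 (limma adjusted p = 0.456). The stress signalling targets had 7 higher and 3 lower of 10 and a median of 0.09. Among them were Chac1, a glutathione-degrading enzyme (0.27, no overlap, limma adjusted p = 0.222), and Vegfa, the vascular endothelial growth factor (0.26, limma adjusted p = 0.505). A second probe set of Vegfa gave 0.22. Chac1 was dim, at 3.5725 to 4.1122 in the mutant and 3.4623 to 3.5697 in wild type, so its groups were barely apart.

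Of the aminoacyl tRNA synthetases, which charge tRNAs and are partly under ATF4, 10 had higher and 11 lower means of 21, with a median of -0.02. Iars, for isoleucine, had a change of 0.21 (limma adjusted p = 0.174), and Farsb, for phenylalanine, one of 0.18 (limma adjusted p = 0.378). The other arms of the unfolded protein response, driven by IRE1 and ATF6, had 8 higher and 6 lower means of 14, a median of 0.10, and 3 genes at an unadjusted limma p under 0.05. All 3 were higher, where 5.21% of all tested genes passed this way. The 3 were Dnajb9 (0.35, limma adjusted p = 0.164), Sdf2l1 (0.31, no overlap, limma adjusted p = 0.121) and Xbp1 (0.24, no overlap, limma adjusted p = 0.218). The first pair encode co-chaperones of the endoplasmic reticulum and the last the transcription factor spliced by IRE1, named after its values were seen. The brown fat marker mean was higher on the mutant arrays beside all of these lists. With the mean of the 8 tested markers as a covariate the changes were 0.40 for Cebpb, -0.02 for Slc38a2 and 0.0039 for Chac1. They were 0.36 for Dnajb9 and 0.38 for Sdf2l1, and none of the genes passed.

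**Figure D5:**
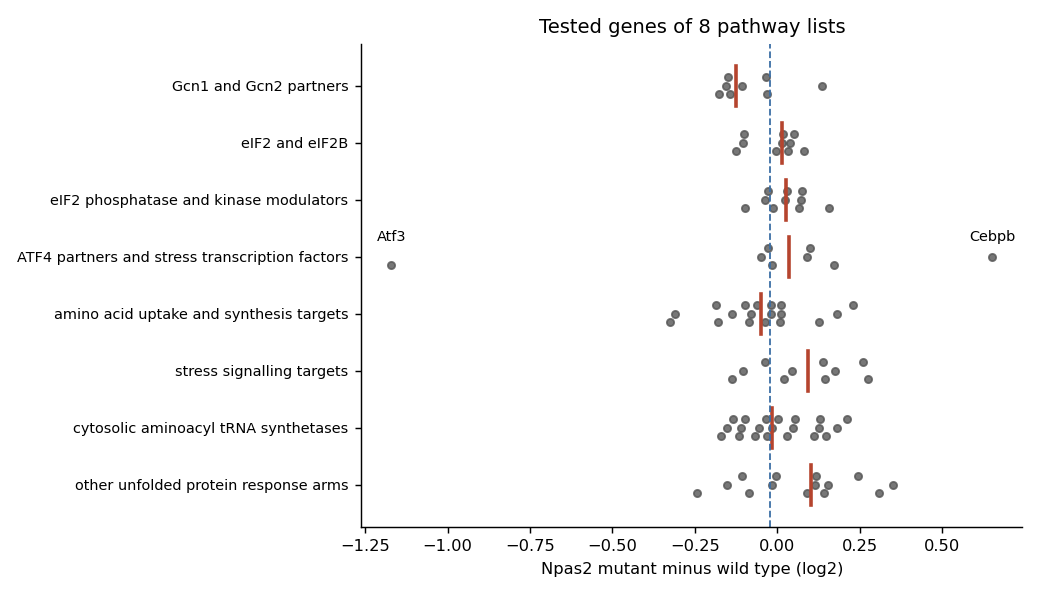
Log2 change, Npas2 mutant minus wild type, of the 99 tested genes of the 8 lists, each by its brightest probe set (grey points), with the list median as a red bar and the median of all tested genes (-0.02) as a dashed blue line. Atf3 at -1.17 and Cebpb at 0.65 lie apart, and the list medians run from -0.13 for the GCN1 and GCN2 partners to 0.10 for the other arms of the unfolded protein response.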

How the data were processed

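Total RNA was hybridised to Affymetrix MOE 430V2 arrays, per the labels. The authors deposited log2 values, already summarised to probe sets. GCRMA and MAS5 are both named, without versions, per the submitters' processing notes, and which of them made the table is not stated. That the scale is log2 was inferred from a range of 1.10 to 14.74. The genome build was not given in the sources used here, and neither were scan dates, so batches were not examined.

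The values were used as deposited. Of 45101 probe sets, 64 were controls. A single gene was given for 34958 and several for 932, some of the controls among them. Of those that were not controls, 9160 had none. Symbols were updated by gene identifier through RefSeq (GRCm38.p6) for 34754. The contrast was fitted with limma 3.58.1 (lmFit, eBayes) in R 4.3.3, two-sided, over the 22340 probe sets above their array's median on at least 5 of 10 arrays, with Benjamini-Hochberg adjustment over all of them and a threshold of 0.05. The fit was also run on simulated data, with independent normal values for each probe set. These lack the shared array and tissue variation of the real arrays, and nothing is read from that run. A gene of a list entered with its brightest tested probe set. Pairs of genes were tested by all 14400 permutations of arrays within groups, with scipy 1.17.1 and Python 3.11.15. Motifs and windows were matched by gene symbol.

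The genes and lists were chosen with earlier results of these data known. The text names every probe set of the 10 genes, the called genes of each list or else the 2 of largest absolute change, and the 5 genes most like Gcn1. Abcf3, Qars and Xbp1 were named besides, after their values were seen. Cell type lists were smooth muscle (11.34 in the mutant and 11.53 in wild type, mean log2 level), endothelial (6.25 and 6.28), adventitial fibroblast (10.48 and 10.39), brown fat (8.66 and 7.96), adipocyte (10.70 and 10.72), skeletal muscle (7.35 and 5.67), cardiac muscle (4.51 and 4.48), macrophage and leukocyte (6.27 and 6.07), red cell (5.43 and 5.32) and nerve and Schwann (6.58 and 6.52), and 0 of their genes were called. Alternatives were other filters, scalings, variance models, weights, thresholds, covariates and left-out arrays.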

Additional observations from a re-analysis of the deposited data

Results flagged for a closer look

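Within a group of 5 arrays, 1 array stood far from the other 4 in 11 of 88 groups examined. For independent, normally distributed values about 1 in 20 would. The groups examined share the same 10 arrays and some of the probe sets are dim. Whether such arrays were in excess was therefore not tested. For Gcn1 the far array was mutant F12 at 2.146 on the dim probe set 1455879_at (the others 1.991 to 2.012) and wild type F15 at 2.615 on the dim 1439472_at. The bright Gcn1 probe set had no such array. For the kinases it was mutant F12 at 2.838 on Eif2ak1 1430696_at, wild type F17 at 3.876 on Eif2ak1 1436006_at, mutant F12 at 5.434 on Eif2ak3 1449278_at (the others 5.597 to 5.614) and wild type F11 at 4.068 on Eif2ak4 1443235_at. Further on, it was mutant F20 at 3.428 on the dim Atf4 1439258_at, wild type F14_2 at 7.264 on Asns 1451095_at (the others 6.958 to 7.046) and wild type F17 at 3.569 on Trib3 1456225_x_at. In the lists it was wild type F11 at 9.812 on Map3k20 and at 3.462 on Chac1. Wild type F14_2 is the array through which the Asns groups overlap on that probe set.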

How the results depend on the processing

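Over the whole table the number of called probe sets was 48 as reported (21 higher and 27 lower in the mutant), 17 with no filter, 141 with a filter at the 75th percentile, 13 by ordinary analysis of variance, 1 with the brown fat covariate, 7 with the skeletal muscle covariate, 191 at a threshold of 0.1, and 0 without the 4 muscle-rich arrays. Leaving out 1 array gave 9 (without wild type F16) to 43 (without wild type F14_2). Median centring gave 34 higher and 18 lower. Of the probe sets of the 10 genes, 1 or 0 was called throughout. It was 0 with no filter, at the 75th percentile (Gcn1 was then not tested), by analysis of variance, with either covariate and without those 4 arrays, and 0 to 1 leaving out 1 array. The criterion by which Gcn1 was chosen was met in 8 of the 20 analyses that included it, the reported one among them, which describes the choice and tests nothing. It was not met with no filter (change -0.72), by analysis of variance (-0.72), with the brown fat (-0.93) or skeletal muscle covariate (-0.68) or without the 4 arrays (-0.56). Leaving out 1 array gave -0.80 to -0.66, and the criterion was met in 3 of 10, without mutant F13, wild type F11 or wild type F14_2. Fewer arrays, or more probe sets tested, enter some of these, and otherwise the cause was not tested.

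Changes that turned their sign had passed in no analysis. By brightest probe set, with the brown fat covariate they were Eif2ak1 (-0.12), Eif2ak3 (0.039), Ddit3 (0.24), Asns (-0.028), Ppp1r15a (0.10), Impact (0.22), Eif2b5 (0.071), Prkra (0.18), Atf3 (0.48) and Mthfd1l (0.20). Without the 4 arrays they were Eif2ak1 (-0.0079), Eif2ak3 (0.0066), Prkra (0.046) and Mthfd1l (0.018). After quantile normalisation and after median centring they were Eif2ak3 (0.0061 and 0.0097) and Ppp1r15a (0.034 and 0.035). Leaving out 1 array, Eif2ak1 ranged from -0.0070 to 0.12, Atf4 from -0.17 to 0.0034 and Ppp1r15a from -0.055 to 0.038. On second probe sets, signs turned with the brown fat covariate for Eif2ak1 1421900_at (-0.27) and Atf4 1438992_x_at (0.42), without mutant F12 for Eif2ak1 1436006_at (-0.0017) and without mutant F18 for Eif2ak2 1422005_at (-0.043). The likeness of Eif3c to Gcn1 moved to 0.712 after median centring. Genes of the 8 lists called stayed at 0 in all 22 alternatives, and pairs of the 10 genes at 0 in all 14. No paired analysis was possible because no replicate identifier is shared between the groups. Dim probe sets, among them 4 of 5 for Gcn1, limit what can be compared.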
